A study of Mus musculus with 2 samples.

Results

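Paneth cells of the mouse ileum were chosen by the levels of 2 of their own transcripts, Lyz1 and Mptx2, in 2 single-cell RNASeq libraries. A cell was taken as a Paneth cell when Lyz1 made up at least 0.5% of its unique molecular identifiers (UMIs, each of which marks 1 captured mRNA molecule) and it held at least 1 UMI of Mptx2. This rule found 314 of 5408 cells, 206 of 3402 in the wild-type (WT) library and 108 of 2006 in the Tipe0-/- library. Both libraries came from the ileum of undamaged C57BL/6 mice aged 8 weeks. The labels speak of enteroids digested with collagenase and dispase and the study's methods of isolated enterocytes digested with dispase and DNAse, so whether the cells had been in culture is not settled, and neither is what the cell shares and levels stand for in the tissue. The WT cells carried no engineered allele, and the Tipe0-/- cells came from mice without Tnfaip8, the gene for TIPE0, with no restriction to a tissue given. Cells of 3 mice per genotype were pooled before sequencing, so that each genotype has 1 library, its cells are not replicates, and a difference between the genotypes cannot be told apart from a difference between the 2 preparations. No test between genotypes was possible, and the intervals below cover counting error only. The WT library held 38127808 UMIs and the Tipe0-/- library 23897126. The labels call both samples enterocytes, but goblet, tuft, enteroendocrine, stem and Paneth markers were found in both.

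Paneth cells sit at the base of the small intestinal crypt, between the Lgr5+ stem cells. They store antimicrobial proteins in large apical granules, among them lysozyme, alpha-defensins (cryptdins in the mouse), angiogenin 4 and lectins, and release them into the crypt lumen. Through ligands such as Wnt3, EGF and Notch ligands they are also part of the niche of the neighbouring stem cells. Their maturation needs Wnt signaling and the transcription factor Sox9.

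The alpha-defensins are encoded by many closely related genes in 1 cluster on chromosome 8 (build mm10), and the stretches before the starts of 2 of the abundant members are shown because they are near copies. The sequences below are from RefSeq (GRCm38.p6), 250 bases before each start, 5′ to 3′ on the strand of the gene. Capitals mark ATCAAAG, the reverse complement of CTTTGAT, a core letter string of binding sites for TCF/LEF factors, which carry Wnt signals to DNA. Lyz1 is shown because it chose the cells.
Defa20, chr8:21509008-21509257, plus strand: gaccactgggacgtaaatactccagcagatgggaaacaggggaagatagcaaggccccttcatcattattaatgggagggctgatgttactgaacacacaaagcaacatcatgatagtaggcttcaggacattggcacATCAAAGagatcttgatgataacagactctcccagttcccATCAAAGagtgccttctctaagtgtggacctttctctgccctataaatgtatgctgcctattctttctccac
Defa22, chr8:21162027-21162276, plus strand: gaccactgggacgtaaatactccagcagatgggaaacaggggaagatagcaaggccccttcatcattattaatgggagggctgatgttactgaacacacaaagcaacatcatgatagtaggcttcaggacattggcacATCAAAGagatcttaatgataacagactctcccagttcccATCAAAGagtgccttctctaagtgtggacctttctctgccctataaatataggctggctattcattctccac
Lyz1, chr10:117292869-117293118, minus strand: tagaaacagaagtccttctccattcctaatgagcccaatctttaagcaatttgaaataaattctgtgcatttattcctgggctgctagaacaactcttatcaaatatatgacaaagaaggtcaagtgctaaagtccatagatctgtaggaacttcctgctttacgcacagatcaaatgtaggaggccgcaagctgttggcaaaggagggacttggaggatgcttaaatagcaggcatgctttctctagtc

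The stretch before Defa21 was identical to that before Defa22 over all 250 bases, and Defa20 differed from both at 5 positions. Searched on both strands, CTTTGAT or ATCAAAG occurred 2 times before each of Defa20, Defa21 and Defa22, at positions -112 and -72 from the start, and 1 time before Gm15284, which RefSeq names Defa30. Of 32851 promoters of the same length, 3.21% held either string. It was not in the stretches before Lyz1, Mptx2, Ang4, Itln1 and Wnt3. Of 2 stretches listed for Mmp7, the one that ends before the annotated gene (chr9:7692090-7699585) held neither string. The other, chr9:7692091-7692340, held ATCAAAG at position -247 from its own listed start, but lies inside the annotated gene. Likeness between genes also bears on the counts, since a read that fits several genes equally well is dropped by Cell Ranger, and the level of 1 alpha-defensin is therefore less certain than the sum of all. The files list 27 alpha-defensin genes by symbol or by the GENCODE M21 or RefSeq name of their ID, of which 23 reached 100 UMIs when the Paneth cells of the 2 libraries were summed. Of the remaining 4, Defa2 had no UMI, Defa25 had 1 UMI in each library, Defa-rs7 had 5 and 1, and Gm21498 had 5 in WT and 0 in Tipe0-/-.

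The targeted gene was checked first. Tnfaip8 was counted 14 times in WT Paneth cells and 2 times in Tipe0-/- Paneth cells, 2.60 (1.42 to 4.37) and 0.651 (0.0788 to 2.35) UMIs per 1000000 (CPM, with exact 95% Poisson intervals). In all other cells Tnfaip8 lay at 10.9 CPM in WT and 2.64 CPM in Tipe0-/-. The direction is that of the labels, but Tnfaip8 was low in the WT Paneth cells too, at 0.238 times the level of the other WT cells in CPM and at 0.0680 UMIs per cell against 0.112. The assay reads the 3′ end of a transcript, and which part of the gene was deleted is not given in the sources used here, so reads outside the deleted part would check nothing. Of its relatives, Tnfaip8l1 had 42 and 21 UMIs, Tnfaip8l3 had 12 and 1, and Tnfaip8l2 had none in either set of Paneth cells.

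Paneth cells made up 6.06% of the WT cells (95% Clopper-Pearson interval 5.28 to 6.91) and 5.38% of the Tipe0-/- cells (4.44 to 6.46). The difference, Tipe0-/- minus WT, was -0.67 percentage points, with a Newcombe interval of -1.91 to 0.64 that includes 0. With Lyz1 at 1% or more the sign turned, with 4.14% of the WT and 4.54% of the Tipe0-/- cells (difference 0.39, interval -0.71 to 1.57). Without the Paneth cells that also met the marker rule of another class it became -1.44, with an interval of -2.23 to -0.60. That step took out 49.0% of the WT but 69.4% of the Tipe0-/- Paneth cells, and the cells it took out were deeper. The genotypes thus did not differ in the share of Paneth cells beyond counting error under the rule as given, and the sign hung on the threshold.

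The Paneth cells were rich in RNA. They held a median of 23936 UMIs in WT (3332 to 82009) and 27343 in Tipe0-/- (3785 to 86351), against medians of 7312 and 6951 in the other cells. So 14.1% of all WT UMIs and 12.9% of all Tipe0-/- UMIs lay in Paneth cells. The number of genes was low for this depth. After each cell was thinned to 3000 UMIs, the median Paneth cell showed 549 genes in WT and 693 in Tipe0-/-, and the median other cell 1246 and 1279.

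Most of the message in a Paneth cell was alpha-defensin. The alpha-defensins took 66.0% of the UMIs of the WT Paneth cells and 54.6% of those of the Tipe0-/- Paneth cells. Per cell the lowest, median and highest shares were 4.73%, 63.0% and 90.9% in WT and 1.09%, 54.5% and 88.3% in Tipe0-/-. The quartiles were 53.0% and 74.98% in WT and 39.9% and 67.8% in Tipe0-/-, so the 2 sets of cells overlapped widely while the Tipe0-/- cells lay lower. Lyz1, which chose the cells, had medians of 1.36% in WT and 2.101% in Tipe0-/-, and ranges of 0.515% to 5.78% and 0.515% to 7.43%. Mptx2, a pentraxin and the other gene of the rule, had median counts of 73.5 and 53.5 UMIs per cell. Ribosomal protein genes took a median of 8.18% of the UMIs per cell in WT and 11.1% in Tipe0-/-, and mitochondrial genes 1.803% and 2.36%.

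**Figure D1:**
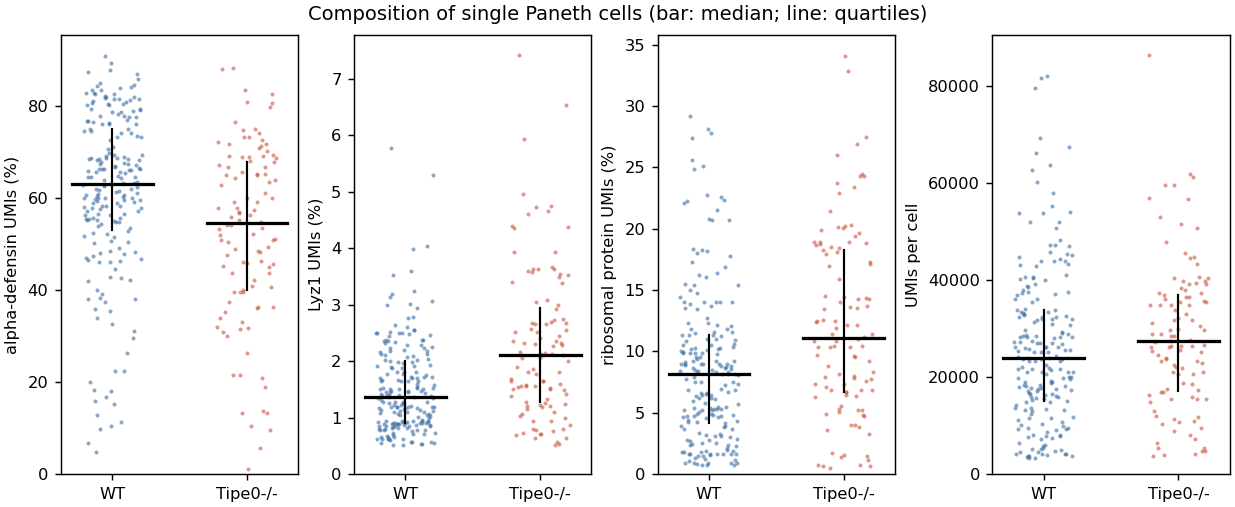
Each point is 1 Paneth cell of the WT (n = 206) or the Tipe0-/- library (n = 108). The panels give the percent of the cell's UMIs from alpha-defensins, from Lyz1 and from ribosomal protein genes, and the UMIs per cell; bars are medians and lines span the quartiles. The alpha-defensin share lay lower and the Lyz1 and ribosomal shares higher in Tipe0-/-, with wide overlap.

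The shares also varied from cell to cell within a library. Over the Paneth cells of a library, the alpha-defensin share went with the log of the UMIs per cell at a Pearson r of 0.48 in WT and 0.15 in Tipe0-/-, and with the Lyz1 share at 0.12 and 0.38. These are descriptions over 206 and 108 cells that share a library, and both measures have the total UMIs of the cell in them. At the Lyz1 threshold there was no gap. The 3 WT Paneth cells just inside it had 0.515%, 0.516% and 0.523% Lyz1, and the 3 cells with Mptx2 just outside had 0.4996%, 0.485% and 0.472%. In Tipe0-/- the values were 0.515%, 0.536% and 0.566% inside and 0.499%, 0.464% and 0.444% outside.

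The rule also left out some cells with much alpha-defensin. At least 20% alpha-defensin UMIs were found in 261 WT and 126 Tipe0-/- cells, of which 66 and 26 were not Paneth cells by the rule. Of these, 35 in WT and 20 in Tipe0-/- had no Mptx2 UMI, and the remaining 31 and 6 had Mptx2 but too little Lyz1. Their median alpha-defensin share was 39.7% in WT and 38.7% in Tipe0-/-, below the medians of the Paneth cells. Conversely, 11 WT and 8 Tipe0-/- Paneth cells by the rule had under 20% alpha-defensin UMIs. No barcode of a Paneth cell occurred in both libraries, although 9 barcodes of other cells did.

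**Figure D2:**
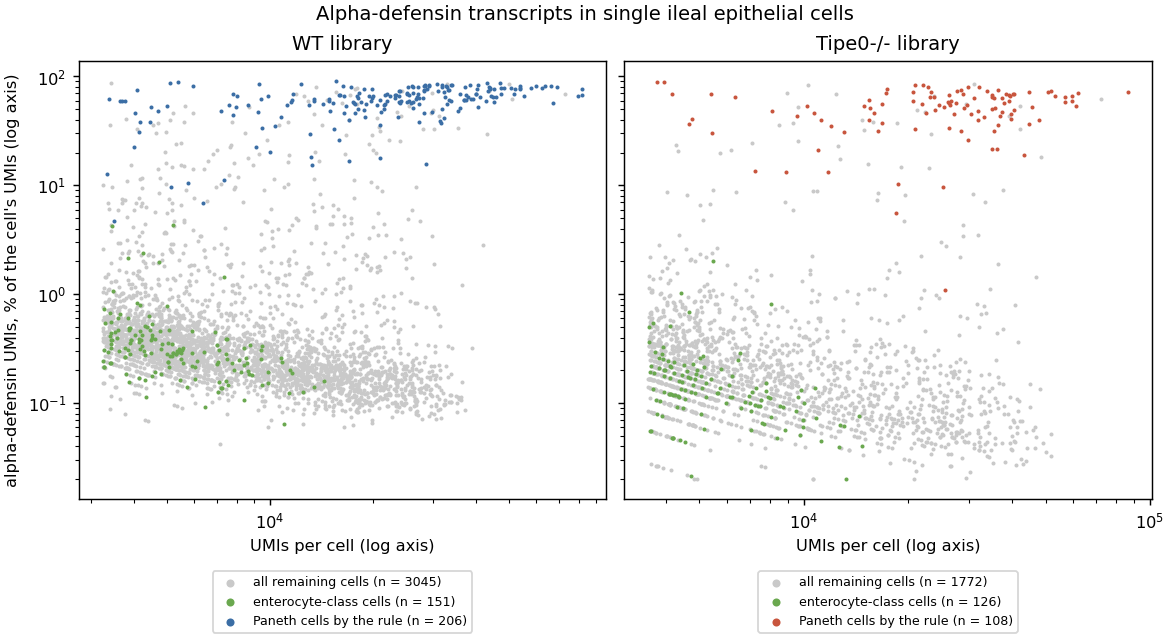
Each point is 1 cell, with its UMIs on the horizontal axis and the percent of its UMIs from alpha-defensins on the vertical axis (both log axes; cells with none are drawn at the foot). Paneth cells by the rule are coloured (206 in WT, 108 in Tipe0-/-), enterocyte-class cells are green (151 and 126) and all remaining cells grey. The Paneth cells lie at the top, with some grey cells among them, and the enterocyte-class cells lie at a low level that is higher in WT.

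Next, the Paneth cells were set against all other cells. Since the cells were selected on their own Lyz1 and Mptx2, this is a description. Of 3478 genes with at least 100 UMIs in the Paneth cells, 45 were at least 4-fold higher than in the other cells of the same library in both libraries (1.29%). The minimum was applied in the Paneth cells alone, so that genes high there passed it more readily. Among the 45 were all 23 alpha-defensins above the minimum, and this count is no test of enrichment. A further 10 were Lyz1, Mptx2 or genes of the lists of other antimicrobial proteins and granule enzymes, and 12 were neither. Each molecule is counted once at its 3′ end, so that levels in CPM do not scale with transcript length.

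The 5 marker genes named for these cells were all abundant. Lyz1 (chr10:117287797-117292868) lay at 14915 CPM in the WT Paneth cells and 410 CPM in the other WT cells, 36.4-fold, and at 21342 and 466 CPM in Tipe0-/-, 45.8-fold. Mptx2 (chr1:173274382-173277777) was about 50-fold and 65.3-fold higher in the Paneth cells. Among the alpha-defensins, Defa22 (chr8:21162277-21163249) was 43.5-fold and 53.1-fold higher, Defa5 (chr8:21297439-21298375) 35.7-fold and 48.3-fold, and Gm14851 (chr8:21095074-21096050), which RefSeq names Defa38, 49.9-fold and 66.9-fold. The 3 markers that the rule did not use were also high in the cells it chose. They were named for these cells with earlier results of these data known, so this is no test of the rule. The most abundant gene of all was Defa24, at 179396 CPM in WT and 126714 CPM in Tipe0-/-, at 17.1 and 20.7 times the other cells.

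Of the granule proteins that are not defensins, colipase (Clps), a cofactor of pancreatic lipase, was 27.1-fold and 37.0-fold higher in the Paneth cells, and the lipase Pnliprp2 16.0-fold and 28.5-fold. Intelectin 1 (Itln1), a lectin for microbial sugars, was 17.8-fold and 23.6-fold higher. Angiogenin 4 (Ang4), an antimicrobial ribonuclease, was 10.6-fold higher in WT and 25.7-fold in Tipe0-/-. Mmp7, the protease that cleaves the defensin precursors in the mouse, was 7.68-fold and 6.81-fold higher, and Reg4 8.18-fold and 8.63-fold. Lyz2, the lysozyme of macrophages, had 47 and 75 UMIs and is a near copy of Lyz1, so its level is uncertain.

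Antimicrobial genes of the whole epithelium behaved otherwise. Reg3g, a lectin that kills Gram-positive bacteria, lay at 6595 CPM in the WT Paneth cells and 24347 CPM in the other WT cells, 0.271 times, and at 0.262 times in Tipe0-/-. Per cell the gap was smaller, with 172 Reg3g UMIs in a WT Paneth cell and 249.5 in another WT cell, and 96.8 and 142 in Tipe0-/-. Reg3b was at 0.0476 and 0.0607 times the level of the other cells. Spink4, a secreted peptide shared with goblet cells, was abundant in both, at 17472 CPM in the WT Paneth cells and 5824 CPM in the other cells, about 3-fold, and 2.07-fold in Tipe0-/-.

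Of the 12 genes on neither list, AY761184, which lies in the alpha-defensin cluster (chr8:21702519-21703645) but carries no defensin name in the annotation used, had 8136 and 8028 CPM. Nupr1, a stress-response regulator, was 10.2-fold and 10.8-fold higher in the Paneth cells. The others were Wnt3, Bambi, C4bp, Slc1a4, Fam46c, Tmed6, Lbh, 4933406C10Rik, Copz2 and Gadd45g, and except for Wnt3 these names were picked out after their values were seen.

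Wnt3 was the only niche ligand among the genes at least 4-fold higher in the Paneth cells, and the only one with enough UMIs to enter that comparison. It was counted 135 times in WT and 95 times in Tipe0-/- Paneth cells, 25.1 CPM (21.1 to 29.7) and 30.9 CPM (25.01 to 37.8), 6.09-fold and 5.50-fold above the other cells. Between genotypes it was 0.30 higher in Tipe0-/- on the log2 scale of CPM, and -0.30 (-0.70 to 0.09) relative to the median of all genes, the scale of the genotype comparison. Thinned to 3000 UMIs, 9.22% of the WT Paneth cells had a Wnt3 UMI (5.64 to 14.0) and 12.04% of the Tipe0-/- Paneth cells (6.57 to 19.7). Thinning evens the total UMIs, not those left beside the alpha-defensins, which took less of the total in Tipe0-/-. Unthinned the shares were 46.6% and 57.4%. None of the 151 WT and 126 Tipe0-/- enterocyte-class cells had one, at median depths of 5030 and 4899 UMIs. That allows a share of cells with a Wnt3 UMI of up to 1.99% and 2.38%. The share of cells that express Wnt3 is not limited by it, since most Paneth cells had no Wnt3 UMI after thinning. Of the 15 niche ligands listed, Wnt3 alone reached 100 UMIs. The other ligands were sparse. Egf had 4 and 12 UMIs, Dll4 25 and 15, Dll1 25 and 18, Tgfa 14 and 12, Jag1 11 and 6, Hbegf 11 and 11, Kitl 20 and 30, and Jag2 0 and 1, and Wnt6, Wnt9b, Wnt11, Bst1, Areg and Ereg had none. Dll4 lay at 0.732 and 0.584 times the level of the other cells and Dll1 at 0.399 and 0.290 times. These levels are shares of a total that is mostly defensin, and per cell Dll1 had 0.121 UMIs in the WT Paneth cells and 0.120 in the other WT cells. Dll4 had the same 25 UMIs in WT, so also 0.121 per Paneth cell, and on this scale lay above the other WT cells.

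**Figure D3:**
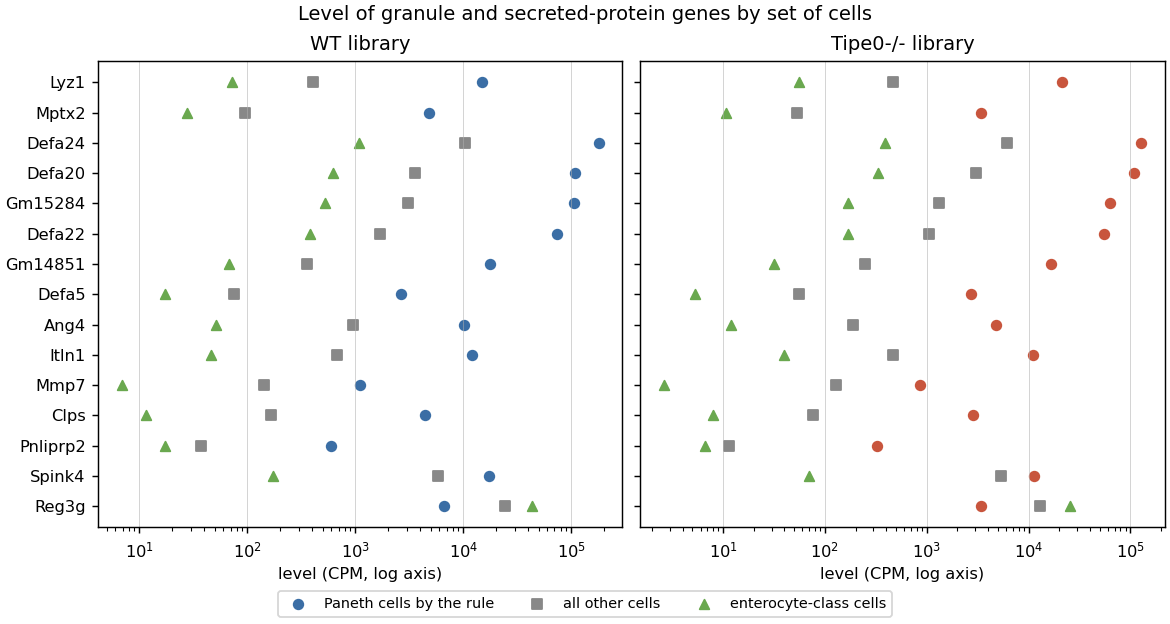
Level of 15 genes (CPM, log axis) in the Paneth cells (circles), all other cells (squares) and enterocyte-class cells (triangles) of each library. All genes but Reg3g are highest in the Paneth cells and lowest in the enterocyte-class cells, as for Lyz1 in WT at 14915, 410 and 71.7 CPM; Reg3g has the opposite order.

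Paneth transcripts in cells that should lack them were taken as a measure of the free RNA in the droplets. Whether doublets or the cells' own expression added to them was not tested. The highest WT enterocyte-class cell had Defa24 at 10744 CPM. Enterocyte-class cells (not Paneth cells, at least 1% of UMIs from Apoa1, Apoa4, Apob and Apoc3) had Lyz1 at 71.7 CPM in WT (54.9 to 91.9) and 55.5 CPM in Tipe0-/- (39.97 to 74.97). That was 0.480% of the Paneth cell level in WT and 0.260% in Tipe0-/-. Several abundant granule genes stood close to this within a library. In WT it was 0.578% for Mptx2, 0.608% for Defa24, 0.578% for Defa20, 0.522% for Defa22, 0.503% for Gm15284 and 0.499% for Ang4. In Tipe0-/- it was 0.307%, 0.304%, 0.304%, 0.301%, 0.265% and 0.247% for the same genes. Others stood further off, among them Pnliprp2 at 2.93% in WT and 2.03% in Tipe0-/-, Defa17 at 0.858% and 0.126%, Gm21002 at 0.625% and 0.179%, Gm14851 at 0.376% and 0.190%, Itln1 at 0.383% and 0.358% and Clps at 0.259% and 0.279%. Of 19 genes compared in this way, the percent was higher in the WT library for all but Clps and Reg3g. Reg3g, at 651% and 758%, and Spink4, at 0.992% and 0.625%, are known to be made by other epithelial cells too. Over the list of 12 Paneth markers the enterocyte-class cells stood at 3.12% of the level of the whole WT library and 1.87% of the whole Tipe0-/- library. At these enterocyte-class rates a droplet would have received about 178 free UMIs in WT and 112 in Tipe0-/-, 0.684% and 0.394% of the UMIs of the Paneth cells. Summed, the tuft-class cells stood at 10.1% and 14.5% of the level of the whole library, but single cells were far above the rest of the class. The median tuft-class cell had Defa24 at 684 CPM in WT and 226 CPM in Tipe0-/-, below the enterocyte-class medians of 903 and 273 CPM, and the highest tuft-class cells reached 136802 and 78928 CPM. In the other direction, Apoa1, one of the genes that chose the enterocyte class, lay at 34.2 and 18.2 CPM in the Paneth cells against 19622 and 18226 CPM in the enterocyte-class cells. Fabp2, which did not choose the class, lay at 32.0 and 58.2 CPM in the Paneth cells against 13468 and 18881 CPM, so that the 2 genes differed in direction between the genotypes.

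The share of other cells with a Lyz1 UMI was near that of the enterocyte class, whereas for Ang4, Itln1 and Mmp7 it was higher. Counted after thinning, 17.2% of the WT enterocyte-class cells had a Lyz1 UMI (11.6 to 24.2), close to the 20.4% of all other WT cells, and in Tipe0-/- the shares were 15.1% (9.33 to 22.5) and 20.9%. Defa24 was found in so many cells, 91.4% of the enterocyte-class and 90.4% of all other cells in WT, that its levels are given instead. Summed over cells, it lay at 10493 CPM in all other cells and 1091 CPM in the enterocyte class in WT, and at 6116 and 386 CPM in Tipe0-/-, while the medians per cell were 868 and 903 CPM in WT and 436 and 273 CPM in Tipe0-/-. In the goblet class the median was 2053 CPM in WT, with an upper quartile of 14514 CPM against 1403 CPM in the enterocyte class, and 519 CPM in Tipe0-/-, with upper quartiles of 1630 and 507 CPM. For Defa20 the goblet-class medians, 352 and 203 CPM, lay below the enterocyte-class medians of 507 and 238 CPM. For Mptx2 the enterocyte-class shares were 7.95% in WT and 1.59% in Tipe0-/-, against 6.91% and 3.16% of all other cells and 91.7% and 90.7% of the Paneth cells. Ang4 was found in 27.8% of the other WT cells and 13.2% of the WT enterocyte-class cells, but in 9.75% and 3.97% in Tipe0-/-. Goblet-class cells, which were deeper at medians of 11340 and 11221 UMIs, had Ang4 in 66.4% (62.6 to 69.95) in WT and 22.2% in Tipe0-/-, Itln1 in 66.1% and 38.8%, and Mmp7 in 40.2% and 33.9%, all after thinning. The enterocyte-class shares were 15.2% and 11.9% for Itln1 and 2.65% and 1.59% for Mmp7. So Ang4, Itln1 and Mmp7 were found in the goblet class well above the enterocyte-class level, whereas Lyz1, at 23.7% and 24.9%, and Mptx2, at 7.21% and 3.23%, had intervals that overlapped those of the enterocyte class. Unthinned, Lyz1 was found in 29.8% and 24.6% of the enterocyte-class cells, Mptx2 in 13.9% and 6.35%, and Ang4 in 21.2% and 5.56%, and in the goblet class Ang4 was found in 83.3% and 39.7%, Itln1 in 85.1% and 60.97% and Mmp7 in 64.3% and 63.0%.

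The genotypes were then compared within the Paneth cells, by the log2 ratio of CPM in Tipe0-/- to CPM in WT (0.5 being added to every summed count). Over the 3478 genes the median ratio was 0.60, and 94.5% of genes lay above 0, beside the smaller alpha-defensin share in Tipe0-/-. In the other cells the median over 10680 genes was 0.11. Ratios are given relative to the median of their own set of cells (the centred ratio), with the ratio of CPM beside it where the sign differs. In CPM, the share of RNA that defensins take and the amount of RNA of the other genes cannot be told apart. Counted as UMIs, alpha-defensins made up 3546023 of 5375256 in the 206 WT Paneth cells. In the 108 Tipe0-/- Paneth cells they made up 1676826 of 3073407. Counts per cell can also differ between the 2 preparations. At least 1.5-fold higher in Tipe0-/- after centring were 122 genes (3.51%), and at least 1.5-fold lower were 209 (6.01%). Of the 209, 193 were also lower in CPM. Of the 208 lower genes with at least 100 UMIs in the other cells, 189 were lower there too, 64 of them past 1.5-fold, and of 121 higher genes 111 were higher there, 17 of them past 1.5-fold. Without granule and goblet genes, whose counts in other cells can hold free RNA and the RNA of defensin-rich cells outside the rule, it was 156 of 172 lower (90.7%) and 111 of 121 higher genes (91.7%). Of all genes tested, called or not, 76.8% of those below 0 and 62.0% of those above 0 had the same sign in the other cells of the same libraries.

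Within the alpha-defensins, 17 of 23 were at least 1.5-fold lower in Tipe0-/- after centring and none was higher, where 6.01% of all genes were lower and 3.51% higher. The median centred ratio was -0.79 against 0 for all genes, and the median in CPM was -0.18. In CPM only Gm15299 (-0.75), Gm15284 (-0.73) and Defa17 (-0.59) were at least 1.5-fold lower, and Gm21002 was at least 1.5-fold higher. In CPM 7 lay above 0, and of these Gm15308, Defa5, Gm15293, Gm15315, Defa23 and Gm7849 lay below 0 after centring, whereas Gm21002 was above 0 on both scales. Defa24 had 179396 CPM in WT and 126714 CPM in Tipe0-/-, a centred ratio of -1.10 (-1.11 to -1.10). Gm15284 (chr8:21134642-21135598) had 105238 and 63355 CPM, a centred ratio of -1.34 (-1.34 to -1.33). Defa20 had 108818 and 108770 CPM, the same level in CPM and -0.60 after centring. Gm15308, which RefSeq names Defa32, had 61816 and 68130 CPM, and Gm21002, named Defa33, had 11646 and 19210 CPM, 0.72 in CPM and 0.12 after centring. Counted per Paneth cell, Defa24 had 4681 UMIs in WT and 3606 in Tipe0-/-, and Gm15284 2746 and 1803. On that scale Defa20 had 2839 and 3095 UMIs, Gm15308 1613 and 1939, and Gm21002 304 and 547.

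The make-up of the alpha-defensin message differed accordingly, on a scale that does not depend on the other genes. Defa24 made up 27.2% of the alpha-defensin UMIs in WT and 23.2% in Tipe0-/-, and Gm15284 16.0% and 11.6%. Defa20 made up 16.5% and 19.9%, Gm15308 9.37% and 12.5%, and Gm21002 1.77% and 3.52%. Defa22 (11.2% and 10.2%) and Defa21 (8.69% and 8.87%) kept close to their places. The order of the first 6 genes was Defa24, Defa20, Gm15284, Defa22, Gm15308 and Defa21 in WT, while in Tipe0-/- Gm15308 stood above Gm15284 and Defa22.

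**Figure D4:**
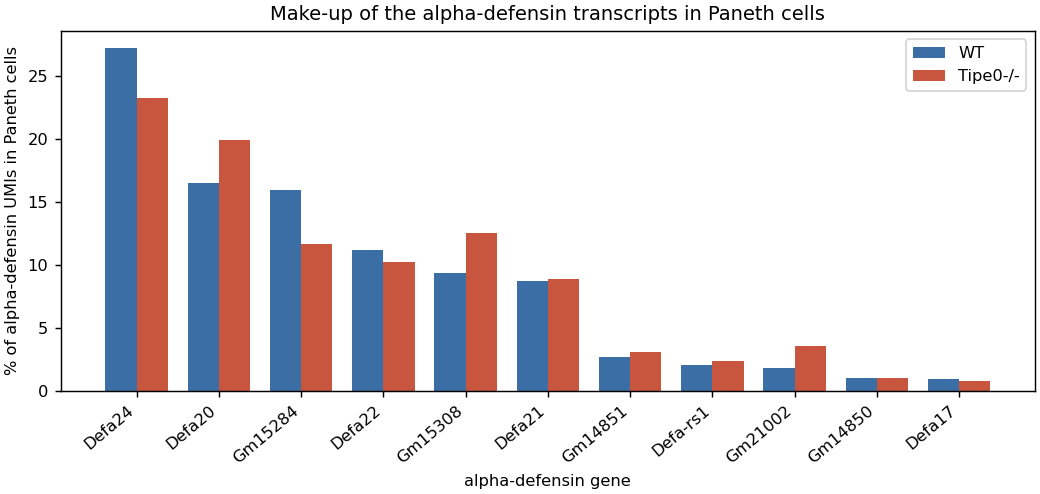
Percent of all alpha-defensin UMIs of the Paneth cells that came from each of the 11 most abundant alpha-defensin genes, in WT and Tipe0-/-. Defa24 and Gm15284 had smaller shares in Tipe0-/-, and Defa20, Gm15308 and Gm21002 larger ones.

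Of the 2 genes of the rule, Mptx2 was lower, with 4796 CPM (4738 to 4855) in WT and 3442 CPM (3376 to 3508) in Tipe0-/-, a centred ratio of -1.08. Lyz1 had 14915 CPM (14812 to 15018) and 21342 CPM (21179 to 21506), 0.52 higher in CPM but -0.09 after centring. Both were subject to the threshold, and the median per cell was 13600 and 21008 CPM for Lyz1.

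The other antimicrobial proteins were lower in Tipe0-/- nearly throughout. Of 9 with at least 100 UMIs, 8 were at least 1.5-fold lower and 1, Lyz2, was higher, where 6.01% of all genes were lower and 3.51% higher. The median centred ratio was -1.18, and the 8 were lower in CPM as well. In CPM only Retnlb (-2.48), Ang4 (-1.09), Reg3g (-0.96) and Pglyrp1 (-0.67) passed 1.5-fold. Reg4 (-0.58), Reg3b (-0.35), Ang (-0.13) and Itln1 (-0.12) did not. Retnlb, a resistin-like protein of the goblet lineage that acts on bacteria, was furthest down of all genes of the list, with 321 CPM (306 to 337) in WT and 57.6 CPM (49.4 to 66.7) in Tipe0-/-, a centred ratio of -3.08. In the other cells Retnlb had 374 and 23.1 CPM. The 5 cells with most Retnlb held 24.97% of its counts in WT and 44.6% in Tipe0-/-. Thinned to 3000 UMIs, Retnlb was found in 43.2% of the WT and 11.1% of the Tipe0-/- Paneth cells, against 0.662% and 0 of the enterocyte-class cells, and unthinned in 85.9% and 42.6%. Ang4 had 10196 and 4803 CPM, a centred ratio of -1.69, with 960 and 187 CPM in the other cells. Its lower quartile per Paneth cell was 5333 CPM in WT and its upper quartile 6407 CPM in Tipe0-/-, so the cells overlapped. Reg3g had 6595 and 3400 CPM, Pglyrp1, a peptidoglycan-binding protein, 514 and 322 CPM, and Itln1 12063 and 11082 CPM, with centred ratios of -1.56, -1.28 and -0.73.

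Of the 6 granule enzymes and related genes, 3 were at least 1.5-fold lower and none higher, where 6.01% of all genes were lower and 3.51% higher. Clps had 4470 and 2835 CPM (centred ratio -1.26), Pnliprp2 591 and 325 CPM (-1.47), and Mmp7 1096 and 867 CPM (-0.94). Spink4 had 17472 and 11203 CPM, a centred ratio of -1.24 that was -0.22 in the other cells.

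Genes of antigen presentation were lower in the Tipe0-/- Paneth cells, as they were in the other cells. All 5 MHC class II genes with at least 100 UMIs were at least 1.5-fold lower after centring, where 6.01% of all genes were. Their median was -1.17 in the Paneth cells and -1.48 in the other cells. In CPM all 5 were lower in the Paneth cells, but only H2-Ab1 (-0.61) passed 1.5-fold. H2-Aa (-0.57), H2-Eb1 (-0.57), Cd74 (-0.51) and H2-DMa (-0.07) did not. Cd74, the invariant chain that guides class II molecules, had 585 and 411 CPM in the Paneth cells and 1767 and 701 CPM in the other cells, and enterocyte-class cells had 2981 and 1067 CPM. H2-Ab1 had 167 and 109 CPM. Of 7 MHC class I and proteasome genes 5 were lower, with B2m at 349 and 266 CPM and Psmb8 at 67.7 and 42.9 CPM. Of 5 interferon-response genes 3 were lower and none higher, where 6.01% of all genes were lower and 3.51% higher. Ifitm3, a membrane protein that blocks virus entry, was furthest down of these, with 408 and 185 CPM (centred ratio -1.74). Ifitm3 was lower to a like degree in the other cells (-1.91). The lymphocyte markers, a possible source of such message, summed to 25.7 CPM in WT and 2.28 CPM in Tipe0-/- Paneth cells, with Gzma at 62 and 6 UMIs the most abundant and Cd3d, Cd3e, Cd3g, Cd2, Ptprc and Gzmb at 0 in Tipe0-/-, and 4 WT Paneth cells met the lymphocyte rule. Their part in these values was not tested.

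Among the genes higher in Tipe0-/- Paneth cells that reached 100 CPM in either library, Ccnd2, a cyclin of the G1 phase, had the largest ratio, with 58.0 CPM (51.8 to 64.9) in WT and 176 CPM (162 to 192) in Tipe0-/-, a centred ratio of 0.999 (0.80 to 1.21), against 0.39 in the other cells. Thinned to 3000 UMIs, it was found in 16.5% of the WT (11.7 to 22.3) and 36.1% of the Tipe0-/- Paneth cells (27.1 to 45.9), with 6.62% and 9.52% in the enterocyte-class cells, and unthinned in 57.3% and 83.3%. Of the thinned UMIs, alpha-defensins leave more for other genes in the Tipe0-/- than in the WT Paneth cells, and most in the enterocyte-class cells. Below 100 CPM, 5 genes had larger centred ratios, Nnt (5.21 and 23.4 CPM, 1.55), Wrnip1 (1.29), Gcg (1.16), Sema5a (1.12) and Car12 (1.11), of which all but Gcg were named after their values were seen. Nnt was higher to a like degree in the other cells (1.60). Bex1 had 43.7 and 118 CPM, Oat, an enzyme of ornithine metabolism, 117 and 311 CPM, G3bp1, a stress granule protein, 61.6 and 144 CPM, and the metallothionein Mt1 130 and 297 CPM. Their centred ratios were 0.83, 0.80, 0.62 and 0.59, and 0.76, 0.81, 0.41 and 0.29 in the other cells.

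Of 11 genes of Wnt reception and response, 3 were at least 1.5-fold higher, Ccnd2, the Wnt receptor Fzd5 (8.93 and 23.1 CPM) and Myc, and none was lower, with a median of 0.28 in both sets of cells, where 3.51% of all genes were higher and 6.01% lower. Ephb3, a receptor that positions Paneth cells in the crypt, had 45.0 and 47.8 CPM, 0.09 in CPM but -0.51 after centring, and the median of the stem cell markers was 0.23. Lgr5 had 154 and 140 UMIs, 28.6 and 45.6 CPM, 1.08 and 1.21 times the level of the other cells in CPM. That scale is a share of a total that is mostly alpha-defensin, and the ratio of counts per cell differs from it. Of 11 secretory and intestinal transcription factors 3, among them Atoh1 (32.2 and 30.6 CPM), were lower after centring and none was higher. Sox9 had 74.6 and 134 CPM, a centred ratio of 0.24 (0.04 to 0.44). No gene of 6 in the PI3K/Akt list passed 1.5-fold, the highest being Pik3r1 with 27.5 and 58.9 CPM, a centred ratio of 0.49.

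The machinery of secretion and translation was then counted against the 6.01% of all genes that were lower and the 3.51% that were higher. Of 19 genes of protein folding in the endoplasmic reticulum 3 were lower and none higher, and of 24 genes of translocation 3 were lower and none higher, with medians of -0.34 and -0.28 that were 0.26 and 0.32 in CPM. The chaperone Hspa5 had 92.3 and 180 CPM, a centred ratio of 0.36, and P4hb 301 and 322 CPM, 0.10 in CPM but -0.51 after centring. Of 10 autophagy and granule genes 2 were lower. Of 90 ribosomal protein genes 3 were higher and none lower, with a median of 0.07, and none of 12 mitochondrial genes passed 1.5-fold. In CPM 94.5% of all genes lay above 0, and so did 90 of 90 ribosomal, 17 of 19 folding and 21 of 24 translocation genes.

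**Figure D5:**
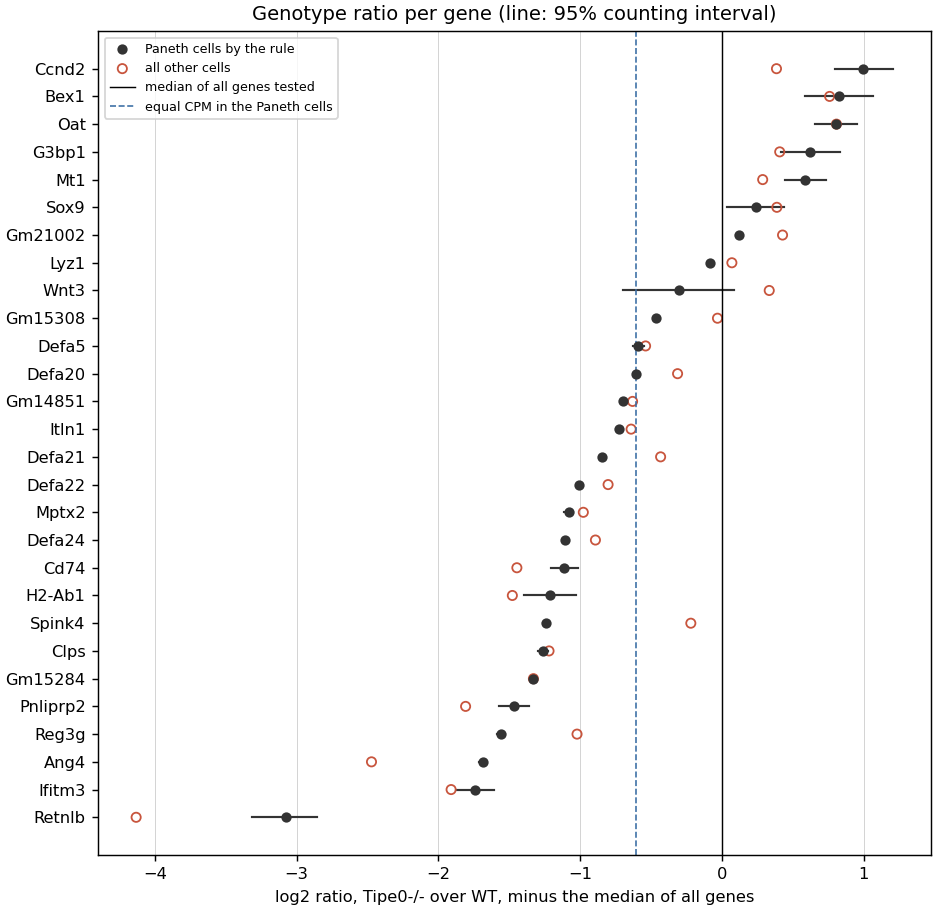
Centred log2 ratios, Tipe0-/- over WT, of 28 genes in the Paneth cells (filled, with 95% counting intervals) and in all other cells (open). The solid line is the median of all genes and the dashed line marks equal CPM in the Paneth cells; Retnlb, Ifitm3 and Ang4 lie furthest to the left and Ccnd2 furthest to the right of the genes drawn.

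Some Paneth cells also carried transcripts of other lineages. The goblet rule (at least 3 Muc2 UMIs and 1 Fcgbp UMI) was met by 35.4% of the WT Paneth cells (28.9 to 42.4) and 50.9% of the Tipe0-/- Paneth cells (41.1 to 60.7), and the stem rule (at least 2 Lgr5 UMIs) by 18.9% and 32.4%. These rules take a fixed number of UMIs, and the Paneth cells that met another rule were deeper, with medians of 28274 and 29666 UMIs against 17723 and 17457. Muc2, the goblet mucin, was found in 77.2% of the WT and 75% of the Tipe0-/- Paneth cells after thinning and in 6.62% and 3.17% of the enterocyte-class cells, and unthinned in 99.0% and 99.1% of the Paneth cells. It lay at 570 and 553 CPM, 0.483 and 0.367 times the level of the other cells. These are shares of a total that is mostly alpha-defensin, in deeper cells, so they do not give the order of Muc2 counts per cell. Over the 8 goblet markers, 6 were at least 1.5-fold lower in the Tipe0-/- Paneth cells after centring, where 6.01% of all genes were. The median centred ratio was -0.96 against 0.02 in the other cells, and -0.35 in CPM in the Paneth cells. In CPM Clca1 (-2.14), Zg16 (-0.89) and Spink4 (-0.64) passed 1.5-fold, and Fcgbp (-0.50), Agr2 (-0.21) and Muc2 (-0.04) did not. Their sum was 19190 and 12920 CPM, most of it Spink4. Clca1, a goblet product, was concentrated in few cells, with 69.8% of its WT and 85.2% of its Tipe0-/- UMIs in 5 Paneth cells. The hormone gene Gcg had 96.3% and 100% of its UMIs in 5 cells. Whether such cells are doublets was not tested. Without the Paneth cells that met another rule, 105 in WT and 33 in Tipe0-/- were left, and the centred ratios of Ang4, Retnlb, Cd74, Ccnd2 and Spink4 were -1.51, -2.61, -1.02, 1.04 and -0.79. Of the other lineages, the tuft markers summed to 11.2 and 7.81 CPM, the enteroendocrine markers to 77.0 and 142 CPM, and the enterocyte markers to 82.4 and 92.7 CPM in the Paneth cells.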

How the data were processed

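Droplet-based single-cell RNASeq counts of 1 library per genotype were used. Per the labels and the study's methods, the authors prepared them with 10x Single Cell 3′ v2 chemistry, aligned to mm10 with Cell Ranger and deposited raw UMI counts of 27998 genes per cell (38127808 UMIs in WT, 23897126 in Tipe0-/-), not normalized, for as many cells as the study states. From these counts the cells were chosen by Lyz1 and Mptx2. The members, lists and rules were chosen with earlier results of these data known. UMIs were summed per library and set of cells and given as CPM with exact Poisson 95% intervals. Log2 ratios (0.5 added) carry exact binomial intervals and were centred on the median of genes with at least 100 UMIs. Intervals cover counting error only. Shares of cells were taken after thinning to 3000 UMIs, which every cell had, and a 0 allows 3 cells. Thinning does not even out the UMIs left for genes other than alpha-defensins. No cell was removed and no doublet caller was run. Classes were set by marker rules on cells outside the Paneth set: enterocyte as given; lymphocyte, tuft and enteroendocrine, 3 UMIs from 2 markers; goblet and stem as given; cells meeting several rules were in no class. Named genes are the 5 markers and alpha-defensins, the 12 highest and 12 lowest ratios at 100 CPM or more (without ribosomal and mitochondrial genes), the top level and extreme ratios of each list, the 20 highest ratios to other cells, Tnfaip8 and its relatives and the niche ligands; a few others are named to fill a count or as list members. The centred ratio, its calls and its intervals were tested on simulated summed counts with known fold changes, and thinning was tested for its total. The simulation held no variation between cells. The rules, the shares of cells and the free RNA level were not tested in this way. Python 3.11.15, numpy 2.4.6, scipy and matplotlib were used. Alternatives covered membership, scaling, depth, filters, Paneth cells that met another class rule and free RNA.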

Additional observations from a re-analysis of the deposited data

Results flagged for a closer look

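Of the goblet markers, Zg16 and Fcgbp were at least 1.5-fold lower in the Tipe0-/- Paneth cells and at least 1.5-fold higher in the other Tipe0-/- cells, whereas Clca1 (centred log2 ratios of -2.75 in the Paneth cells and -0.79 in the other cells), Spink4 (-1.24 and -0.22) and Agr2 (-0.81 and -0.47) were lower in both. Muc2 (-0.65 and 0.24) and Tff3 (-0.24 and 0.11) also differed in sign after centring, short of 1.5-fold in the other cells, and Klk1 (-0.55 and -0.07) did not. In CPM 2 of the 8 goblet markers, Tff3 and Klk1, lay above 0 in the Paneth cells, and both did so in the other cells too. For Tff3 the log2 ratios of CPM were 0.37 and 0.23. Muc2 lay at -0.04 in CPM in the Paneth cells. Zg16, a lectin of goblet granules, had 61.0 and 32.9 CPM in the WT and Tipe0-/- Paneth cells, a centred log2 ratio of -1.49, but 1640 and 3978 CPM in the other cells, 1.16. Fcgbp, a mucus protein, had 61.8 and 43.6 CPM in the Paneth cells, -1.10, and 988 and 1689 CPM in the other cells, 0.66. With 1 library per genotype these differences were not tested. In the WT Paneth cells 63.1% of the Zg16 UMIs and 69.0% of the Fcgbp UMIs lay in 5 cells, and in Tipe0-/- 34.7% and 37.3%.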

How the results depend on the processing

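The share of Paneth cells was lower in Tipe0-/- by 0.45 to 1.44 percentage points under 6 alternatives and higher by 0.39 with Lyz1 at 1% or more. The counts of genes at least 1.5-fold higher (122) and lower (209) were 1800 and 33 without centring, 327 and 108 with totals that leave out Lyz1, Mptx2, alpha-defensins and mitochondrial genes, 510 and 579 after thinning to 3000 UMIs, 336 and 432 with at least 50 UMIs, 17 and 81 with at least 300 UMIs, and 37 and 100 without the Paneth cells that met another class rule; thinning and the lower minimum rest on fewer UMIs per gene and the higher one tests fewer genes. They stayed within 1.5 times under the other alternatives, from 103 to 176 higher and from 176 to 214 lower. Against enterocyte-class cells in place of all other cells, 429 genes were at least 4-fold higher. The level of Paneth markers in the cells that should lack them, 3.12% in WT, was 2.92% from Lyz1 alone and 3.29% in lymphocyte-class cells, and in Tipe0-/-, 1.87%, it was 2.31% in lymphocyte-class cells, of which there were 8. Without centring 24 of 94 named genes, 9 of 23 list medians and 1546 of all 3478 genes turned from below to above 0, among them Defa5 (0.011 against -0.59), the one of the 24 that had passed 1.5-fold, Gm15308 (0.14 against -0.46), Lyz1 (0.52 against -0.09), Wnt3 (0.30 against -0.30) and the medians of endoplasmic reticulum folding and translocation. After thinning Mki67 was -0.75 against 0.68. Membership by at least 20% alpha-defensin UMIs, an alternative chosen after seeing the data, gave 126 higher and 182 lower genes. No paired analysis was possible because each genotype has 1 library. Depth limits what can be said of sparse genes such as Egf and Tnfaip8.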
